A study of Mus musculus with 2 samples.

Results

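Circular RNAs (circRNAs) of the Ras GTPase-activating protein (RasGAP) genes Rasa1, Rasa2, Rasa3, Rasal2, Dab2ip and Nf1 were described in sorted intestinal cells. The 6 genes were taken by name, as host genes of the deposited circRNA lists, and every circRNA placed in them was kept. They gave 55 circRNAs out of 31496 listed over both libraries. Of these, 50 had at least 1 read across the back-splice junction. The genes were chosen by their family name with junction reads of these libraries already known, and Rasa2 was selected on its high junction reads, so its level is a description.

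The cells came from the intestine of Lgr5GFP-CreERT2 mice aged 2 months, in which GFP and the CreERT2 recombinase are made under control of the Lgr5 locus. Lgr5 marks the stem cells of the crypt base. Cells were sorted into an Lgr5+ fraction, labelled ISC, and an Lgr5- fraction, labelled non-ISC, both carrying the same allele, and no treatment is named. Each fraction was sequenced as 1 library of RNA depleted of ribosomal RNA and treated with RNase R, an exonuclease that removes linear molecules, so differences cannot be checked over replicates and p-values are left out. How many mice went into a library is not stated in the labels.

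A circRNA forms when the splice donor at the end of an exon is joined to the acceptor at the start of the same or an earlier exon. A read across that joint marks the circle, and the count of such reads does not grow with the length of the circle. Ras proteins are molecular switches that are active when bound to GTP, and RasGAPs speed up the hydrolysis of that GTP and so turn Ras off. In the intestine, Ras signalling downstream of the EGF receptor is known for supporting the division of crypt cells. In human T cells, loss of RASA2 is known to raise Ras signalling after antigen receptor stimulation.

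The 2 most abundant circles of the family are both made from Rasa2 and start at the same acceptor, that of exon 2. One ends at exon 4 and the other at exon 5. The exons of these circles are shown because they are the leading ones in both libraries. They are read 5′ to 3′ from the GENCODE M21 transcript Rasa2-201, on the minus strand of chromosome 9 (GRCm38), and all of them are coding sequence. Capitals mark the first 20 nt of exon 2, which follow the back-splice in both circles.
Rasa2 exon 2 (chr9:96611382-96611499): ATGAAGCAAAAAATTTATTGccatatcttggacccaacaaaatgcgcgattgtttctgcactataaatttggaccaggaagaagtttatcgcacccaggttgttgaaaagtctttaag
Rasa2 exon 3 (chr9:96606093-96606196): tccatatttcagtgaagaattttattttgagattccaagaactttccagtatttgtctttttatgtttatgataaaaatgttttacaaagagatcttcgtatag
Rasa2 exon 4 (chr9:96602713-96602807): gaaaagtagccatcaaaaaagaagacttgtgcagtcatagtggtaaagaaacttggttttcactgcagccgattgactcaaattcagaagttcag
Rasa2 exon 5 (chr9:96591950-96592026): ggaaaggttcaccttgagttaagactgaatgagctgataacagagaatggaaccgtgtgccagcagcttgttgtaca

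The back-splice junctions themselves tell the circles apart. Below, the last 20 nt of the donor exon are in lower case and the first 20 nt of the acceptor exon in capitals. The first 4 share the acceptor of exon 2, and the last belongs to Nf1.
Rasa2 exon 4 to exon 2: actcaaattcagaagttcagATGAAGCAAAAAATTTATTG
Rasa2 exon 5 to exon 2: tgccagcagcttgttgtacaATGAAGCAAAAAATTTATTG
Rasa2 exon 9 to exon 2: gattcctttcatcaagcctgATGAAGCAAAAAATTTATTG
Rasa2 exon 6 to exon 2: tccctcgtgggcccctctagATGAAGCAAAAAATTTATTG
Nf1 exon 27 to exon 25: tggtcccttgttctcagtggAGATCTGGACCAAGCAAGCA

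The libraries held 156582 (ISC) and 76331 (non-ISC) junction reads, so a count of 0 allows up to 19.2 and 39.3 reads per 1000000 junction reads (3 counts). Defining markers went against the labels. Lgr5 had 0 junction reads in the ISC-labelled library and 7 in the other, and the pan-epithelial gene Epcam had 0 against 59. Over 13 epithelial markers, 12 had reads, 9 of these were at 0 in the ISC-labelled library, and the sums were 7 and 467 reads. Over 10 markers of Lgr5 stem cells the sums were 33 and 171. Over 19 immune markers, 15 had reads, 7 of these were at 0 in the non-ISC-labelled library, and the sums were 7200 and 138. Satb1 gave 4292 and 3 of these reads and Bcl11b 1013 and 107. As shares of junction reads, Pax5 (2 against 3) and Zap70 (3 against 2) went the other way. Among the immune markers Ptprc, the gene of CD45, had 58 against 0 and the T cell receptor subunit gene Cd3g had 11 against 0. Of the 10 markers of stroma, muscle and endothelium only 3 had reads. Their sums were 73 and 7, of which the single gene Pecam1 gave 67 and 7. The part of cell makeup in the results below was not tested, and fewer cells of a type and less circRNA per cell cannot be told apart in these libraries. Directions are therefore given between libraries as labelled, and pairs of values from the libraries stand in the order ISC-labelled, non-ISC-labelled library.

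Rasa2 carried almost all circRNA reads of the family. Its host gene sum was 2292 junction reads (ISC) and 996 (non-ISC), which placed it at rank 3 of 5823 and rank 2 of 4823 host genes with reads. These sums were 97.6% and 95.8% of the reads of all 6 genes. As a level, Rasa2 had 14638 and 13048 junction reads per 1000000. Nf1 came next with 204 and 498 per 1000000, more than 1 order of magnitude below Rasa2 in both libraries. Each of the other 4 genes had at most 8 reads in a library. Their exact Poisson intervals, which cover counting error only, overlapped one another in both libraries, so their order is not resolved.

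**Figure D1:**
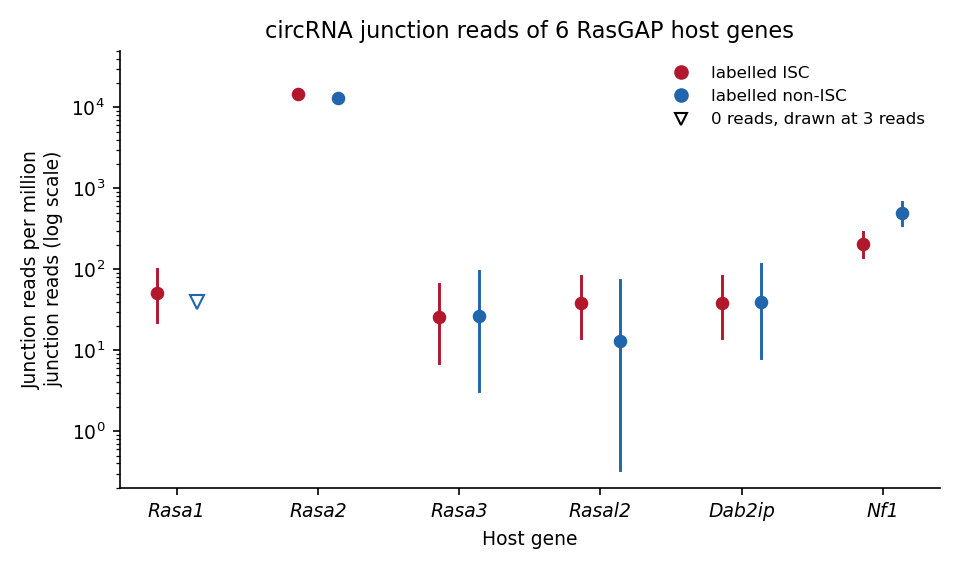
Junction reads per 1000000 junction reads (log scale) of the 6 RasGAP host genes in the ISC-labelled library (red) and the non-ISC-labelled library (blue), 1 library each, with bars for exact Poisson 95% intervals of the count. Rasa2 lies at 14638 and 13048 per 1000000, Nf1 at 204 and 498, and the rest at 51.1 or less, with Rasa1 at 0 reads in the non-ISC-labelled library drawn at 3 reads.

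As a share of junction reads, the host gene sum of Rasa2 differed little between the libraries. The ratio of its share of junction reads, ISC-labelled library over non-ISC-labelled library, was 1.12 (95% exact conditional interval 1.04 to 1.21, counting error only). A feature was called higher or lower where both libraries together gave it 10 reads or more, the ratio reached 2-fold up or down, and the interval left out 1. By this rule 26.7% of 2920 host genes were higher and 22.7% were lower in the ISC-labelled library. Of the 6 RasGAP genes only Rasa2 and Nf1 had enough reads. Rasa2 was not called and Nf1, with 32 reads against 38, was lower, at a ratio of 0.411 (0.248 to 0.675). The scale decides both readings. Per read of the library totals that the deposited RPM values imply, every ratio is 2.82 times larger (1.49 on the log2 scale). On that scale Rasa2 was called higher at 3.16 (2.93 to 3.41), as were 1717 of the 2920 host genes. Nf1 turned to 1.16 (0.699 to 1.90) and was not called.

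Rasa2 encodes a RasGAP of the GAP1 group, whose C2 domains lie ahead of the catalytic GAP domain in the protein. The gene lies on the minus strand at chr9:96539300-96631617 and has 24 exons in Rasa2-201. It had 19 listed circRNAs, 18 of them with junction reads: 5 in both libraries, 9 in the ISC-labelled library alone and 4 in the non-ISC-labelled library alone. Of the 18, 15 had both ends on exon ends of the transcript. The remaining 3 had 1 read each and at least one end inside an intron.

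The circle of exons 2 to 4 had 1148 reads (ISC) against 584 (non-ISC). That of exons 2 to 5 had 1072 against 386. Together they made 96.9% (exact binomial 95% interval 96.1 to 97.5) of the ISC-labelled Rasa2 reads and 97.4% (96.2 to 98.3) of the non-ISC-labelled ones. Over all circRNAs of the libraries they ranked 5 and 6 in the ISC-labelled library, and 3 and 7 in the other. For both circles the deposited read count equalled the junction count in each library. The deposited RPM values were 21.8 and 8.08 for exons 2 to 4, and 20.4 and 5.34 for exons 2 to 5.

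The remaining Rasa2 circles were rare, with 72 ISC-labelled reads and 26 non-ISC-labelled reads in all. The next in reads, of exons 2 to 9 (chr9:96576286-96611499) had 24 and 4 reads. That of exons 2 to 6 (chr9:96582743-96611499) had 7 and 9. Exons 14 to 17 (chr9:96557400-96568487) gave a circle with 13 and 2 reads that shares no exon with the leading pair. Exons 6 to 9 (chr9:96576286-96582826) gave 13 ISC-labelled reads, and this circle was not listed in the other library, where a missing entry need not stand for 0 reads. The other 12 circRNAs with reads had at most 4 in either library.

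**Figure D2:**
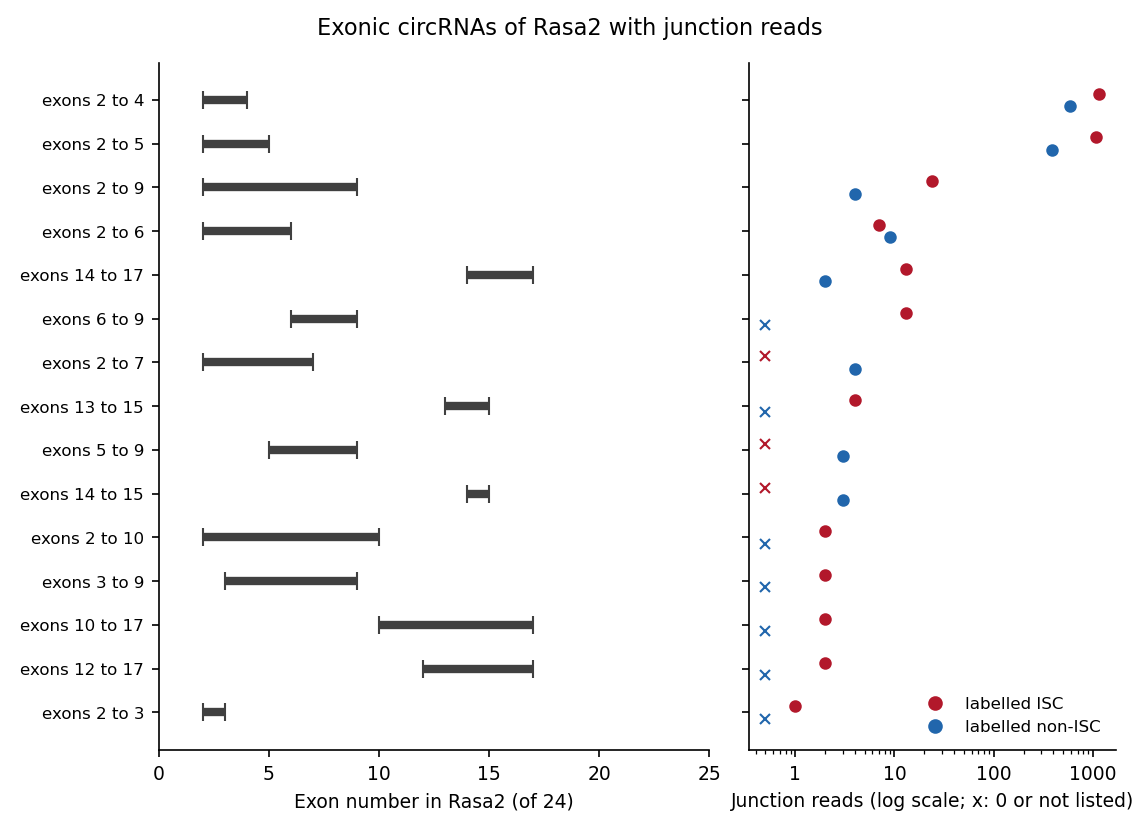
The 15 exonic circRNAs of Rasa2 with junction reads: exons spanned in Rasa2-201 (left, bars from first to last exon) and junction reads in each library (right, log scale, 1 library per label; crosses mark 0 or no entry). Both leading circles start at exon 2 and have 386 reads or more in each library, while no other circle exceeds 24 reads.

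Most Rasa2 reads used a single acceptor. Circles starting at exon 2 took 2254 of 2292 ISC-labelled reads (98.3%, 97.7 to 98.8) and 987 of 996 non-ISC-labelled reads (99.1%, 98.3 to 99.6). Exon 2 served as acceptor for 7 circles with reads, with donors at exons 3, 4, 5, 6, 7, 9 and 10. On the donor side the reads were split: exon 4 took 50.1% and 58.6%, exon 5 took 46.8% and 38.8%, and exon 9, the donor of 4 circles, took 1.70% (1.21 to 2.32) and 0.703% (0.283 to 1.44). The donor of exon 3, which gives the smallest of these 7 circles, had 1 ISC-labelled read and no other.

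As a difference between libraries, the leading circle kept close to an equal share, with a ratio of 0.958 (0.867 to 1.06). Exons 2 to 5 were at 1.35 (1.20 to 1.52), below the 2-fold rule. Exons 2 to 9 were called higher at 2.92 (1.005 to 11.6), with the interval just above 1, and this call was lost when reads were halved as if both mates of a pair had been counted (0.651 to 26.9). Exons 6 to 9 also met the rule, if its missing entry stands for 0 reads, but with reads halved it kept 6 reads, under the minimum, so this call was lost too. The circles of exons 2 to 6, at 0.379 (0.120 to 1.14), and of exons 14 to 17, at 3.17 (0.717 to 28.9), were not called. Across Rasa2 and Nf1, 8 circRNAs had at least 10 reads, of which 2 were higher and 0 lower, against 32.4% higher and 23.0% lower among all 3659 circRNAs with that many reads. Nothing particular to the family is read from 8 circRNAs.

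**Figure D3:**
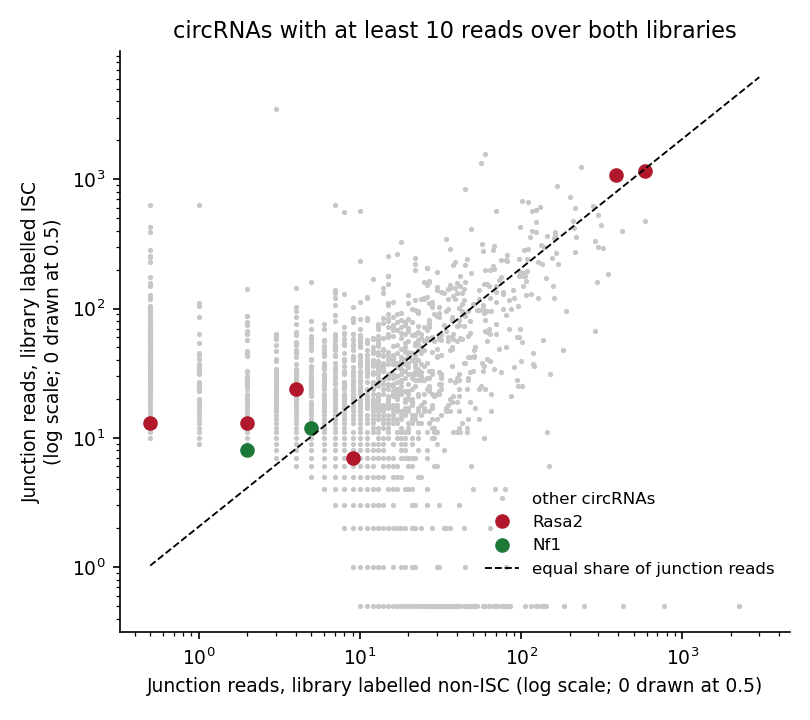
Junction reads of each circRNA with at least 10 reads over both libraries (both axes on a log scale, 0 drawn at 0.5), ISC-labelled library against non-ISC-labelled library, with the 6 of Rasa2 in red, the 2 of Nf1 in green and all others in grey. The leading Rasa2 circles, at 1148 against 584 and 1072 against 386 reads, sit at the top right near the dashed line of equal share.

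The balance between the leading Rasa2 circles differed between the libraries by more than counting error. For each read of the circle of exons 2 to 4 there were 0.934 reads (ISC) and 0.661 reads (non-ISC) of the circle of exons 2 to 5. The ratio of these ratios was 1.41 (conditional estimate, exact interval 1.21 to 1.65), and 1.41 (1.13 to 1.77) with reads halved. It does not depend on how the libraries are scaled. As shares of the host gene, exons 2 to 4 held 50.1% (48.0 to 52.2) against 58.6% (55.5 to 61.7), and exons 2 to 5 held 46.8% (44.7 to 48.8) against 38.8% (35.7 to 41.9). Both circles start at the same acceptor and differ by exon 5, so a larger part of the ISC-labelled reads came from the circle that includes exon 5. An observed difference of this size was common, though counting error is larger for host genes with fewer reads than Rasa2. Of 197 host genes for which each library held 50 or more reads and more than 1 circRNA, the leading circRNA's share had separate intervals in 32.0%. The median absolute difference was 8.72 percentage points, and Rasa2 lay at -8.55.

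**Figure D4:**
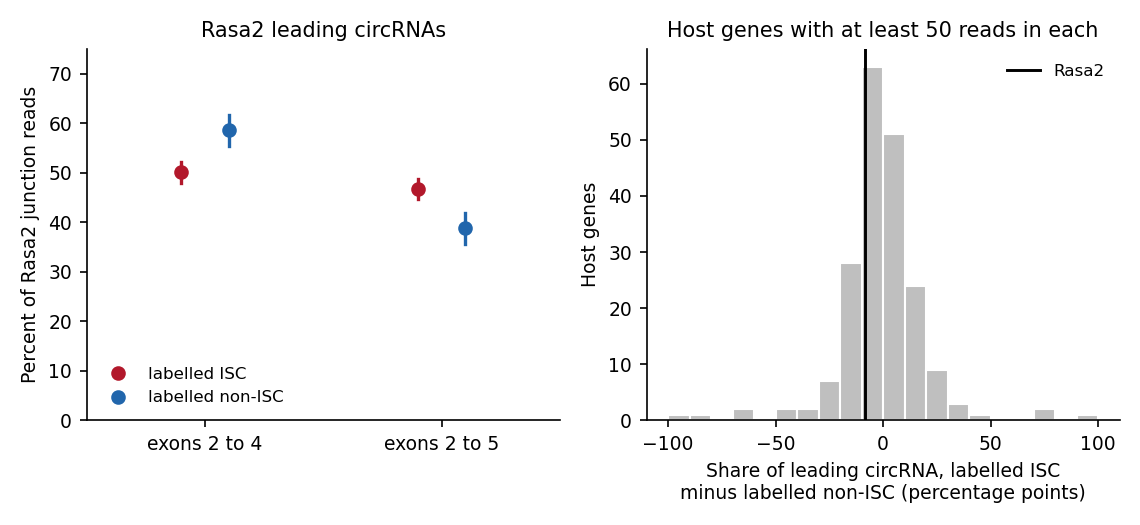
Left: percent of Rasa2 junction reads held by the circles of exons 2 to 4 and exons 2 to 5 in each library (1 library per label, bars are exact binomial 95% intervals). Right: number of host genes by the difference in share of their leading circRNA, ISC-labelled minus non-ISC-labelled, in percentage points, over 197 host genes, with Rasa2 at -8.55 among the most populated bins.

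Like both leading Rasa2 circles, 35.0% of the 3347 exonic circRNAs with at least 10 reads had exon 2 as their first exon. Exons 2 to 4 span 317 nt after splicing and exons 2 to 5 span 394 nt, against a median of 436 nt (quartiles 334 and 622). The intron before exon 2 measures 19864 nt, above the median of 8724 nt (quartiles 3041 and 20148). The introns after exon 4 and exon 5 measure 10686 and 9123 nt, against a median of 6261 nt (quartiles 2656 and 13854). Exons 14 to 17 lie between shorter introns, with 532 nt before it and 4213 nt after it. Exons 2 to 4 hold codons 44 to 149 of 847 and exons 2 to 5 codons 44 to 175, the amino-terminal part of the protein. Exons 14 to 17 hold codons 453 to 583. Neither leading circle has a spliced length that is a multiple of 3, while those of exons 14 to 17 (393 nt) and exons 6 to 9 (336 nt) do, as do 38.7% of the 2763 wholly coding circRNAs with at least 10 reads.

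Nf1 encodes neurofibromin, the RasGAP lost in neurofibromatosis type I. The gene lies on the plus strand at chr11:79339693-79581612 and has 58 exons in Nf1-201. Unlike Rasa2, it had no dominant circle: 16 circRNAs had reads, all exonic, 3 of them in both libraries, 4 in the ISC-labelled library alone and 9 in the non-ISC-labelled library alone. Exons 25 to 27 (chr11:79446806-79448336) gave a circle with 12 and 5 reads, a ratio of 1.17 (0.384 to 4.24). Exons 32 to 36 (chr11:79468717-79475883) gave 8 and 2, a ratio of 1.95 (0.389 to 18.8). Exons 42 to 47 (chr11:79546971-79551134) gave 1 and 6 reads.

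Over the 3 Nf1 circRNAs with reads in both libraries the sums were 21 and 13, a ratio of 0.787 (0.376 to 1.71), and the call was lost. This choice leaves out circles with no reads in one library by construction, so it does not locate the lower sum. The most covered circles without an ISC-labelled entry were those of exons 28 to 30 with 5 reads, exons 2 to 3 with 4 and exons 12 to 17 with 4. In the other direction the circle of exons 2 to 4 had 6 ISC-labelled reads and no non-ISC-labelled entry. Circles starting at exon 2 held 18.8% (7.21 to 36.4) of the ISC-labelled Nf1 reads and 21.1% (9.55 to 37.3) of the non-ISC-labelled ones. The acceptor of exon 12 had 0 and 7 reads and that of exon 25 had 12 and 5, with overlapping intervals of their shares.

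**Figure D5:**
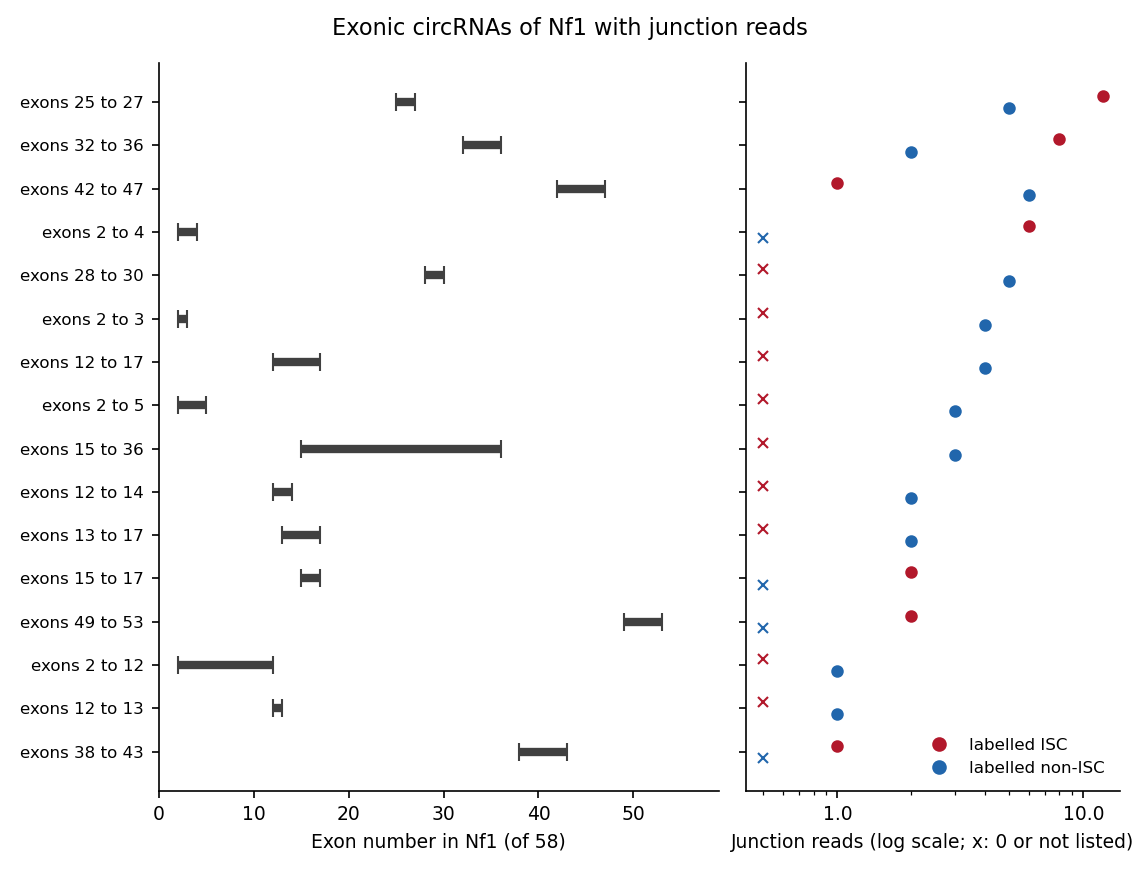
The 16 exonic circRNAs of Nf1 with junction reads: exons spanned in Nf1-201 (left) and junction reads in each library (right, log scale, 1 library per label; crosses mark 0 or no entry). The circles are spread over the gene with at most 12 reads each, and 3 of them, exons 25 to 27, 32 to 36 and 42 to 47, have reads in both libraries.

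Rasa1, Rasa3, Rasal2 and Dab2ip had too few reads for a call. Together they had 24 (ISC) and 6 (non-ISC) junction reads, a ratio of 1.95 (0.777 to 5.83). Rasa1 encodes p120-RasGAP, which binds phosphorylated receptors through SH2 domains. It had 8 ISC-labelled reads on 4 circRNAs, led by exons 2 to 6 (chr13:85250432-85258470) with 4, and 0 reads in the other library, where 2 other Rasa1 circRNAs were listed without junction reads. Rasa3, a close relative of Rasa2, had 4 and 2 reads on 4 circRNAs, none shared. Its circle of exons 2 to 4 (chr8:13605862-13631892), which has the same spliced length of 317 nt as the leading Rasa2 circle, had 1 ISC-labelled read and no entry in the other library. Rasal2 and Dab2ip encode RasGAPs of the SynGAP group. Rasal2 had 6 and 1 reads, of which 5 ISC-labelled reads lay on exons 2 to 3 (chr1:157286731-157299264), a circle listed in the other library with 0 junction reads. Dab2ip had 6 and 3 reads, led by exons 2 to 3 of Dab2ip-202 (chr2:35643888-35661625) with 3 ISC-labelled reads.

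Across the family, 42 of the 50 circRNAs with reads were exonic, against 69.2% of all 26265 circRNAs with reads. Of these 42, 19 started at exon 2, against 26.2% of all exonic circRNAs, and each of the 6 genes had at least 1. Of the 50, 8 had reads in both libraries, against 16.7% of all, and 28 had 1 or 2 reads.

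Other genes of the Ras pathway were summed as 5 lists of host genes. Of 7 other RasGAP and IQGAP genes, 4 had reads and 3 had at least 10, of which 1 was higher and 0 lower. IQGAPs carry a GAP-related domain but bind Rac and Cdc42. Iqgap2 had 46 reads against 17, Iqgap1 42 against 15, and Rasal1 11 against 0. Of 14 Ras family GTPases, 3 had at least 10 reads and none was called. Rras2, which encodes the GTPase TC21, held most reads of that list, with 649 against 221, a ratio of 1.43 (1.23 to 1.68), while Rala had 9 against 8 and Rap1a 9 against 2.

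Exchange factors, which load Ras and Rap with GTP, and effectors, which Ras activates, gave values on opposite sides of 1. Of 14 exchange factor genes, 6 had at least 10 reads, 2 were higher and 0 lower. Their reads summed to 307 against 74, a ratio of 2.02 (1.56 to 2.64), with Rapgef6 giving the largest part of both sums. Rapgef6, a Rap exchange factor, was higher with 189 against 34 reads (2.71, 1.87 to 4.03), while Sos2 had 32 against 16 and Sos1 34 against 9, neither called. Of 19 effector gene symbols, among them an old and a current symbol of the same gene, 7 had at least 10 reads. Of these 7, 0 were higher and 5 lower. Summed, the ratio was 0.517 (0.442 to 0.604), turning to 1.45 with library totals. Shoc2, a scaffold of the Ras effector pathway, was lower with 137 against 136 reads (0.491, 0.385 to 0.627), as was the phospholipase gene Plce1 with 17 against 55. Of 16 adaptors and feedback regulators, 5 had at least 10 reads, 1 was higher and 1 lower, with 1.06 (0.895 to 1.26) for the sum. Spred2, of a family of feedback inhibitors known to bring neurofibromin to the plasma membrane, had 319 against 140 reads (1.11, 0.908 to 1.36) and Spred1 54 against 21, neither called. The docking protein gene Gab1 was lower with 15 against 27 (0.271, 0.134 to 0.528). These counts stand beside the 26.7% higher and 22.7% lower over all host genes. Median log2 ratios of list genes with at least 10 reads and reads in both libraries were 0.42 (2 RasGAP and IQGAP genes), 0.52 (3 GTPases), 1.29 (5 exchange factors), -1.03 (5 effectors) and 0.24 (4 adaptors), against 0.09 over 2458 host genes.

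Rasa2 was selected on its high junction reads, so having few neighbours at its level follows in part from that choice. By distance of log2 junction reads per 1000000 over the 2 libraries, the host genes outside the family nearest to Rasa2 were Rbm4 (616 against 813 reads, distance 1.92), Erbb2ip (1353 against 283, distance 1.97) and Rere (1251 against 255, distance 2.15). For the leading circle the nearest outside the family were circRNAs of Rbm4 (477 against 583 reads, distance 1.27), Erbb2ip (1245 against 235, distance 1.32) and Setd3 (617 against 280, distance 1.39). With 2 libraries this distance describes level and balance only.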

How the data were processed

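Per the labels' protocols, RNA was fragmented to about 200 bp and read as pairs of 150 nt. Trimming with Trimmomatic 0.36, a FastQC check and mm9 as build are named in the submitters' processing notes. Aligner and caller were not given in the sources used here. Deposited by the authors were 3 values per circRNA: a read count, an RPM value made from it, and a count of junction reads, which was the measure used. Dividing the deposited count by the deposited RPM gives library totals of 52636694 and 72271995 reads. Circle starts lay on GENCODE M21 (GRCm38) exon starts for 77.9% and 75.3% of entries, against at most 0.109% when shifted by 1 nt, so coordinates are given as GRCm38, counted from 1. Entries without a host gene were left out of host sums. Unlisted circRNAs counted as 0 in host sums, shares and calls, also in the numbers called over all circRNAs. Exons are numbered along the first coding transcript, by name, on which both ends fall. Exons inside a circle are assumed to be retained. The 6 genes, the lists and the rule for named genes (all members, every member circRNA with at least 10 reads, the 3 most covered genes of each list, the 3 nearest to Rasa2) were chosen with earlier results of these data known. One gene that the rule names is not reported here. Intervals are exact at 95% (scipy 1.17.1, Python 3.11.15) and cover counting error only, since paired mates and PCR copies are not independent. The call rule was tested on simulated data. Alternatives were 2 other scalings, halved reads, the count column, minimums of 50 and 0 reads, and circRNAs with reads in both libraries only. A planned search for a GAP domain motif was not run.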

Additional observations from a re-analysis of the deposited data

Results flagged for a closer look

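Entries of the non-ISC-labelled library that have 0 junction reads but a deposited read count above 3 were found for each of the 6 RasGAP genes. Among the 32 RasGAP entries of that library, 7 were of this kind, and in the ISC-labelled library there were 0. In Rasa2 the entry at chr9:96552303-96582826 had a count of 27. In Nf1 the entry at chr11:79549408-79553997 had a count of 22. In Rasa1 the entries at chr13:85225482-85230475 and chr13:85238139-85244338 had counts of 8 and 4. In Rasa3 the entry at chr8:13577360-13577889 had a count of 21. In Rasal2 the entry at chr1:157286731-157299264 had a count of 7, and in Dab2ip the entry at chr2:35643888-35661625 had 42. Those of Rasal2 and Dab2ip had 5 and 3 junction reads in the ISC-labelled library. Over the whole non-ISC-labelled library, 6122 entries (33.4%) had no junction reads, with a median count of 19. Of the 18324 entries of that library, 5263 had no junction reads and a count above 3, as the 7 RasGAP entries did.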

How the results depend on the processing

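No paired analysis was possible because each label has 1 library. For the same reason no replicate could be left out. With library totals the host gene ratio became 3.16 for Rasa2 and 1.16 for Nf1, and that of Rasa3 and of Dab2ip, under the read minimum, 2.75 each. On that scale the Rasa2 circles of exons 2 to 4 and 2 to 6 turned to 2.70 and 1.07, and the effector list to 1.45. Newly called higher there were the Rasa2 host gene and its circles of exons 2 to 4, 2 to 5 (3.81) and 14 to 17 (8.92). The Nf1 circles of exons 25 to 27 (3.30) and 32 to 36 (5.49) were too. So were the sums of the RasGAP and IQGAP (4.12), GTPase (3.74) and adaptor (2.99) lists. Beside these calls stand 2140 of all 3659 circRNAs and 1717 of all 2920 host genes called higher on that scale. Median-ratio scaling, a shift of 0.30 in log2, gave 0.505 for Nf1 (no longer called), 1.20 for Rasa3 and for Dab2ip, and 1.18 for the Rasa2 circle of exons 2 to 4. With reads halved, Dab2ip turned to 1.46. Over circRNAs with reads in both libraries Nf1 was at 0.787 and the adaptor list at 0.938. With the count column, Rasa2 turned to 0.672, its circle of exons 2 to 5 to 0.829, and Rasal2 to 0.166, while Nf1 at 0.817 and the Rasa2 circle of exons 2 to 9 at 1.79 lost their calls. Dab2ip at 0.0481, Rasa3 at 0.417, Rasal2 and the Rasa2 circle of exons 2 to 6 at 0.232 were then called lower, and the Nf1 circles of exons 25 to 27 at 3.94 and 32 to 36 at 6.57 higher. On this column Rpph1 alone holds 79.1% and 25.5% of the totals, which sets the scale. The share differences of the leading Rasa2 circles kept their direction and separate intervals under the 3 alternatives run. These left little room for a change of direction. Halving keeps the shares almost the same, and the count column and the choice of circRNAs in both libraries keep the reads of both circles. Over all circRNAs, 1187 higher and 841 lower became 2140 and 426 with library totals, 471 and 355 with reads halved, 6622 and 8982 with the count column, 260 and 143 at 50 reads, and 398 and 513 over those in both libraries; with no minimum 2306 were lower. Over host genes, 779 and 663 became 1717 and 324, 434 and 380, 1623 and 3932, 300 and 187, and 240 and 348 in that order, with 1041 lower with no minimum. Other causes were not tested. Depth limits the 4 genes under 10 reads.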
